A study of Homo sapiens with 19 samples.

Results

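A cassette exon is an internal exon that a transcript can include or leave out. Most internal exons of human genes are short, and the exons described here are the long ones: cassette exons longer than 300 and up to 3000 nt. Members were junction triplets with 2 inclusion junctions and 1 skipping junction, all annotated in GENCODE 29, that shared their outer ends and enclosed an annotated internal exon, with at least 1 skipping read over the 19 junction files. The rule found 1076 long cassette exons in 943 genes among 23447 cassette exons up to 3000 nt. Another 6426 annotated junction triplets of these lengths enclosed no single annotated exon and were left out. No measured difference between samples entered the rule.

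The series sequenced spliced RNA after ribosomal RNA depletion from 3 human cell lines. There was 1 library each of total, nuclear and cytoplasmic RNA of A375, a line from a melanoma. HEK293, derived from embryonic kidney, and HUES66 titled WT, which are embryonic stem cells, were sequenced once each. The A375 fractions were made by lysing cells in a buffer of low salt and Triton. The other 14 libraries came from HUES66 cells given 1 µg/ml doxycycline for 24, 48 or 96 hr: 3 controls (genotype WT), 3 RBFOX2 total knockdowns (total KD), 4 N-short knockdowns (N-short KD) and 4 N-long knockdowns (N-long KD). The series title names Cas13d, an RNA-guided enzyme that cleaves RNA. All 4 conditions carried doxycycline, the labels name no clone, and p-values measure only the spread between these libraries, since nothing states that they came from separate cultures. The libraries form 4 sets by time and library series. Replicate 1 of 24 hr lacks a control by its titles, replicate 2 of 24 hr lacks the total knockdown, and the sets of 48 hr and 96 hr are complete and belong to 1 library series. The description of the wild-type HUES66 library is worded like those of the controls and places it in the library series of 24 hr replicate 1, so it was left out of the tests and used as an alternative only.

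Inclusion of an exon is decided when the spliceosome pairs splice sites across the exon or across the introns, and pairing across an exon becomes harder as the exon gets longer. Long exons that are nevertheless spliced often rely on enhancer sequences bound by SR proteins. RBFOX2, the protein lowered here, binds the RNA sequence GCAUG and promotes or blocks an exon according to where it binds, mostly in the flanking introns. Some long exons add protein domains, whereas others, known as poison exons, carry a stop codon that sends the transcript to nonsense-mediated decay. Inclusion is given as the percent of inclusion reads in inclusion plus skipping reads, where inclusion reads are the mean of both inclusion junctions.

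Sequences across the junctions are printed for 6 coding exons on which the results turn, read 5′ to 3′ from GENCODE 29 transcripts (GRCh38), with the bases of the long exon in capitals and the neighbouring exons in lower case. The upstream and downstream junctions are those of inclusion, and the third sequence of each gene is the skipping junction.
EPB41L1 upstream: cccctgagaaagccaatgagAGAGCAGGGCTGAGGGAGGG
EPB41L1 downstream: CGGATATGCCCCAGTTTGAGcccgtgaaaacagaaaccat
EPB41L1 skipping: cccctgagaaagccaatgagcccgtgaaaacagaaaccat
NASP upstream: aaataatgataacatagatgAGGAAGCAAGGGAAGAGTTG
NASP downstream: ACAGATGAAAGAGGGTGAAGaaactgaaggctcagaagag
NASP skipping: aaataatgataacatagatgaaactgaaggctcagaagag
MKI67 upstream: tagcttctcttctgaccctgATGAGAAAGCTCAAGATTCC
MKI67 downstream: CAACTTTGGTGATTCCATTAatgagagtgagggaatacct
MKI67 skipping: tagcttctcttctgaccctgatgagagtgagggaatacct
KIF23 upstream: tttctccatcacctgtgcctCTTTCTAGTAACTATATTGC
KIF23 downstream: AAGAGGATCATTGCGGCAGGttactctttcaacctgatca
KIF23 skipping: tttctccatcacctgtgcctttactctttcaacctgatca
EPB41 upstream: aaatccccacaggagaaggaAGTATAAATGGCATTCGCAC
EPB41 downstream: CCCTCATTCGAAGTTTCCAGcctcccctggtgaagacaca
EPB41 skipping: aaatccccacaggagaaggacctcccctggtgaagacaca
VCAN upstream: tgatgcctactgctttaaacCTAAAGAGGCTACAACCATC
VCAN downstream: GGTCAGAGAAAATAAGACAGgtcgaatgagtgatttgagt
VCAN skipping: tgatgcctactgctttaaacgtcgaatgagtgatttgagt

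All 6 exons keep the reading frame. They add 137 codons to EPB41L1, 339 to NASP, 360 to MKI67, 104 to KIF23, 150 to EPB41 and 987 to VCAN. None of the 6 holds GCATG, the DNA form of the RBFOX motif, which was searched on the transcribed strand of the exon only. Among the 277 long exons that could be tested 103 held it (37.2%), against 9.21% of 6473 tested short exons. Per kilobase of exon the motif was about as frequent in both, at 0.811 and 0.884. The introns were not searched, and a missing match says only that these letters are not in the exon.

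The 1076 long exons had a median length of 482 nt. By annotation 378 were coding throughout, 354 partly coding, 117 lay in untranslated sequence and 227 in transcripts without a coding sequence. Of the long coding exons 51.9% had a length divisible by 3, against 49.6% of coding exons up to 300 nt. A stop codon annotated in a nonsense-mediated decay transcript lay in 162 long exons. Pooled over the 14 libraries under doxycycline, 562 were included above 90%, 171 below 10% and 332 in between. The remainder had no inclusion or skipping reads in those libraries. Within 10 nt above the length threshold lay 64 members, of which 21 could be tested (median inclusion 42.1%, pooled over all 19 libraries). Within 10 nt below it lay 62 exons, of which 12 could be tested (79.2%).

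The 2 inclusion junctions of an exon should carry similar numbers of reads if every read through the exon uses both, so their balance was examined first. Of 965 long exons with at least 20 inclusion reads, 413 had junctions 3 fold or more apart, which is 42.8%. Over all 19477 cassette exons examined in this way the share was 28.6%, and among those up to 300 nt it was 27.9%. Unequal junctions were present in 16.7% of tested long coding exons and in 56.9% of tested long exons of noncoding transcripts. In 154 long exons an annotated intron with reads lay inside the exon, so that the junction reads cannot tell the long exon from shorter exons with the same ends. Only 36 exons up to 300 nt held such an intron.

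**Figure D1:**
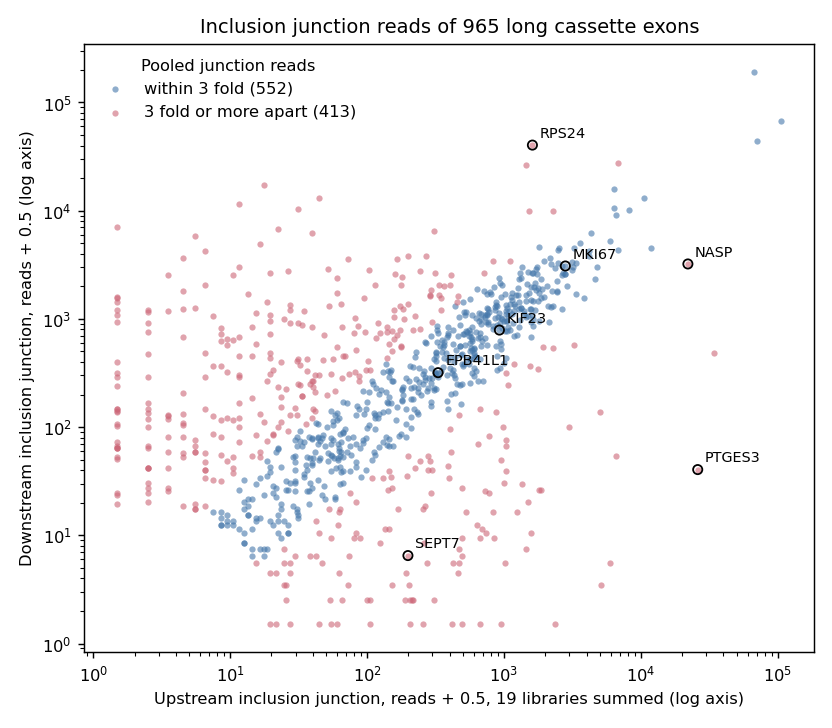
Reads on the upstream (x axis) and downstream (y axis) inclusion junction of 965 long cassette exons, summed over 19 libraries with 0.5 added, on log axes. Each point is an exon, and 413 exons with junctions 3 fold or more apart are in red. EPB41L1, KIF23 and MKI67 lie on the diagonal, whereas RPS24, NASP, PTGES3 and SEPT7 lie away from it.

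The most heavily read unequal exons belonged to highly expressed genes. PTGES3, a co-chaperone of HSP90, had 25959 reads on the upstream junction of its 635 nt exon and 40 on the downstream one, beside 14812 reads on annotated donors inside the exon. HNRNPC, a pre-mRNA binding protein, had 1453 and 26271 on its 519 nt exon, beside 20798 reads into acceptors inside it. The ribosomal protein gene RPS9 had 34387 and 482 (449 nt), with 49043 reads from donors inside. DDX3X, an RNA helicase, had 44 and 12994 (1393 nt), with 11093 reads into acceptors inside. In these 4 genes splice sites inside the exon thus carried reads of the same order as the busier inclusion junction.

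Not every unequal exon had such reads. NASP had 22003 reads on the upstream and 3218 on the downstream junction, a 6.84-fold difference, with no other annotated junction into or out of the exon. Ribosomal protein genes, HMGN1, HNRNPC, PTGES3 and NASP have processed pseudogenes, and reads that the authors' alignment could place in more than 1 copy make their counts uncertain.

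RBFOX2 itself was checked first. Reads on its annotated junctions, scaled to the library's junction reads (CPM), ranged over 119 to 126 CPM for the 3 controls. The range was 48.2 to 78.7 CPM for total KD, 72.7 to 87.6 for N-long KD, and 107 to 120 for N-short KD. Total and N-long KD thus did not overlap the controls, and N-short KD reached into their range. Stem cell markers held 2679 to 4341 CPM summed over 8 genes in the HUES66 libraries, led by POU5F1 and DNMT3B. SOX2 has a single exon, so its junction reads are 0 in every library and say nothing of its expression. In A375 total RNA the stem cell markers summed to 9.15 CPM and the 7 melanoma markers to 155 CPM, against 36.7 to 71.9 in the 14 HUES66 libraries. Of these SOX10 was at 100 CPM in A375, MLANA and TYR, defining markers of pigmented melanoma cells, were at 0, and PMEL went the other way, at 0.48 CPM against 34.8 to 69.3 in HUES66. Of the 6 HEK293 markers all were above 0 in HEK293, at 90.1 CPM together. Libraries held 6499183 to 27937149 junction reads, and the 14 of the knockdown experiment 9622841 to 14625040.

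The comparison with control asked which long exons respond to loss of RBFOX2. In total KD 4 long exons of 277 tested passed the threshold (adjusted p under 0.05), in EPB41L1, NASP, RPS24 and SEPT7, all with lower inclusion; over all 6750 cassette exons 1.33% passed, so the long exons were near the background at 1.44%. In N-long KD 4 long exons passed, in EPB41L1, RPS24, SEPT7 and BRAF, all lower, against 0.489% of all exons. The N-short knockdown had 1 call, the SEPT7 exon, against 0.0148%. Between the isoform knockdowns 2 were lower in N-long KD, in EPB41L1 and RPS24, against 0.385%. The 3 comparisons with control share their control libraries. At an unadjusted p under 0.05 there were 21 (7.58%) long exons for total KD, 15 (5.42%) for N-long KD, 10 (3.61%) for N-short KD and 15 (5.42%) between the isoform knockdowns. Over all exons the shares were 7.79%, 5.54%, 4.28% and 5.01%, so these numbers were near the background. The test was the edgeR quasi-likelihood F-test with Benjamini-Hochberg adjustment over all exons. Single libraries moved these counts. For N-long KD the count was 2 without the 24 hr control or the 96 hr N-long KD library and 1 without the 48 hr control, the 96 hr control or the 48 hr N-long KD library. Between the isoform knockdowns it was 1 without N-long KD 24 hr replicate 2, 2 without N-short KD 24 hr replicate 1, and 0 without any 1 of the other 6 libraries compared (9 to 15 exons at an unadjusted p under 0.05 over the 8). Of these calls only EPB41L1 rested on an exon with balanced junctions and no intron inside.

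EPB41L1 (ENSG00000088367.21) encodes protein 4.1N, which ties membrane proteins to the spectrin and actin skeleton. Its 411 nt coding exon occupies positions 36209488 to 36209898 of chromosome 20 (GRCh38, plus strand). Its inclusion was 40.0% in the 24 hr control, 39.0% at 48 hr and 28.9% at 96 hr. In total KD it was 14.5%, 11.8% and 12.2% at 24, 48 and 96 hr. In N-long KD it was 18.8% and 19.5% in the 2 libraries of 24 hr, 7.14% at 48 hr and 20.0% at 96 hr. In N-short KD it was 38.2% and 32.6% at 24 hr, 30.2% at 48 hr and 34.3% at 96 hr. Every total KD and N-long KD library lay below every control and every N-short KD library, and N-short KD overlapped the controls. Each of these libraries had 35 to 64 reads on the exon.

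Against the control of the same set, inclusion of EPB41L1 under total KD fell by 22.0 points ± 7.43 (SD, n = 2 sets), lower in 2 of 2 sets (log2 odds -1.98, SE 0.45; edgeR adjusted p 0.0096). In N-long KD it fell by 20.4 points ± 11.5 (SD, n = 3 sets), lower in 3 of 3 (log2 odds -1.67, SE 0.40; edgeR adjusted p 0.034). N-short KD differed from control by -3.65 points ± 7.81 (SD, n = 3 sets; edgeR adjusted p 1.00). N-long KD was 17.5 points ± 4.64 below N-short KD (difference -17.5, SD, n = 4 sets), lower in 4 of 4 sets, in a comparison that uses no control library directly (edgeR adjusted p 0.039). The exon's 2 junctions held 329 and 318 reads over all libraries, and both gave lower inclusion: in total KD by -20.8 points on the upstream and -23.4 on the downstream junction, and in N-long KD by -21.8 and -18.3. The calls rest on few libraries. For total KD the adjusted p by edgeR was 0.24 when the 48 hr control was left out and 0.063 when the 48 hr knockdown was. For N-long KD it was 0.55 and 0.42 when the control or the knockdown of 48 hr was left out, 0.17 without the 24 hr control and 0.069 without replicate 1 of N-long KD at 24 hr. Between the isoform knockdowns leaving out any of the 8 libraries compared gave an adjusted p of 0.054 to 0.53.

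In the authors' deposited tables, which give control minus knockdown on a scale of inclusion from 0 to 1, the EPB41L1 exon had a difference of 0.319 in N-long KD at 48 hr (authors' adjusted p 0.0051) and 0.258 in total KD at 24 hr (authors' adjusted p 0.040). The authors' other N-long KD values were 0.203 at 24 hr and 0.08 at 96 hr, and for total KD 0.272 at 48 hr and 0.152 at 96 hr. None of these passed (authors' adjusted p 0.078 to 0.94). In the same deposited tables N-short KD at 24, 48 and 96 hr had 0.045, 0.096 and -0.044, so N-long KD at 96 hr lay below N-short KD at 48 hr. Over their 9 tables the authors' adjusted p was under 0.05 with a difference of at least 0.1 for 0 to 2 events on long exons per table. Beside EPB41L1 such events in the authors' deposited tables included NASP (total KD, 96 hr, 0.161) and ANKHD1 (exon of 759 nt, total KD, 48 hr, 0.143).

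NASP (ENSG00000132780.16) encodes a chaperone that carries histones. Its coding exon of 1017 nt on chromosome 1 (plus strand, 45607321 to 45608337) was included at 73.7%, 78.9% and 73.9% in the controls of 24, 48 and 96 hr. Total KD had 68.0%, 65.9% and 58.2%, below every control. N-long KD ranged from 68.8% to 73.9% and N-short KD from 72.9% to 79.2%. Inclusion in total KD fell by 14.4 points ± 1.94 (SD, n = 2 sets; log2 odds -0.80; edgeR adjusted p 8.3e-07). The call held with any library left out but not with limma (adjusted p 0.44) or DESeq2 (0.061). The differences of N-long KD (-4.02 points ± 1.82, SD, n = 3 sets; edgeR adjusted p 0.22) and N-short KD (0.41 points ± 1.47, n = 3; adjusted p 1.00) did not pass. Each of these libraries had 839 to 1294 reads on this exon, the most of any tested long coding exon. Because its junctions are unequal, the level depends on the junction: the upstream junction alone gave 85.0% in control and 74.0% in total KD, the downstream one 45.4% and 29.7%. The difference had the same sign on both, at -11.0 and -15.7 points.

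RPS24, a protein of the small ribosomal subunit, had the most reads of any tested long exon (2787 nt on chromosome 10, plus strand, 78037439 to 78040225, annotated in a noncoding transcript). Its inclusion was 22.0%, 35.0% and 18.9% in the controls of 24, 48 and 96 hr, and 18.1%, 23.2% and 10.7% under total KD. The 4 N-long KD libraries had 20.7%, 20.4%, 27.2% and 13.7%, with the 2 of 24 hr first. Within sets it fell by 10.0 points ± 2.55 under total KD (SD, n = 2 sets; edgeR adjusted p 7.2e-08) and by 4.88 points ± 3.12 under N-long KD (n = 3 sets; edgeR adjusted p 0.0035). The reads do not show the long exon as a unit. The downstream junction held 40386 reads and the upstream one 1610, an annotated intron inside the exon held 663, and acceptors inside it took 43286. The upstream junction was at 0 in 9 of 19 libraries and at 105 to 347 reads in the other 10, with no library in between; the 96 hr total KD and the 48 hr N-long KD libraries were among those at 0, the controls of the same sets were not. The N-long KD call was lost without the control or the N-long KD library of 48 or of 96 hr (edgeR adjusted p 0.054 to 0.095). Inclusion was 3.67 points ± 2.997 lower with N-long than with N-short KD (difference -3.67, SD, n = 4 sets; edgeR adjusted p 0.029), and that call was lost without N-long KD 24 hr replicate 1, N-short KD 24 hr replicate 2, or either isoform library of 48 or 96 hr (0.059 to 0.42).

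SEPT7, a septin of the cytoskeleton, passed in the 3 comparisons with control and over time on the reads of 1 control. Its exon (chromosome 7, plus strand, 35831492 to 35832034, noncoding transcript) had 75, 66 and 57 reads on the upstream junction of 3 libraries, namely N-short KD and N-long KD of 24 hr replicate 1 and the 96 hr control. It had 0 in the other 16. The downstream junction held 6 reads in all. Without the 96 hr control the log2 odds of total KD went from -12.3 to -5.05 (edgeR adjusted p 0.57) and those of N-long KD from -7.44 to -0.19 (adjusted p 1.00). Those of N-short KD turned from -5.49 to 1.91 (edgeR adjusted p 1.00), and that call was also lost without N-short KD or N-long KD of 24 hr replicate 1 or of 96 hr (0.16 to 0.98). Over time the sign turned without the control of 96 or of 48 hr (log2 odds 6.57 with all libraries, -2.16 and -5.75 without; edgeR adjusted p 1.00). Without the 96 hr control no long exon was called by edgeR for N-short KD (18 at an unadjusted p under 0.05), and 3 were for total KD and 1 for N-long KD.

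BRAF, a kinase of the MAPK pathway, passed in N-long KD; its difference from the other knockdowns was tested only against N-short KD (edgeR adjusted p 0.88). Its 959 nt exon in a noncoding transcript was at 100% in the 3 controls and at 92.1%, 93.5%, 88.1% and 93.3% in the 4 N-long KD libraries (edgeR adjusted p 0.027), which had 3 to 8 skipping reads each and the controls 0. An intron inside the exon held 778 reads, about as many as the downstream junction (772). The call was lost without any 1 of the 3 controls or without the N-long KD library of 48 or 96 hr (adjusted p 0.077 to 0.45). Among exons that did not pass, PRRC2B, whose 2082 nt coding exon has balanced junctions (1813 and 1749 reads), had a difference of -8.62 points ± 3.91 under total KD (SD, n = 2 sets; edgeR adjusted p 0.071).

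**Figure D2:**
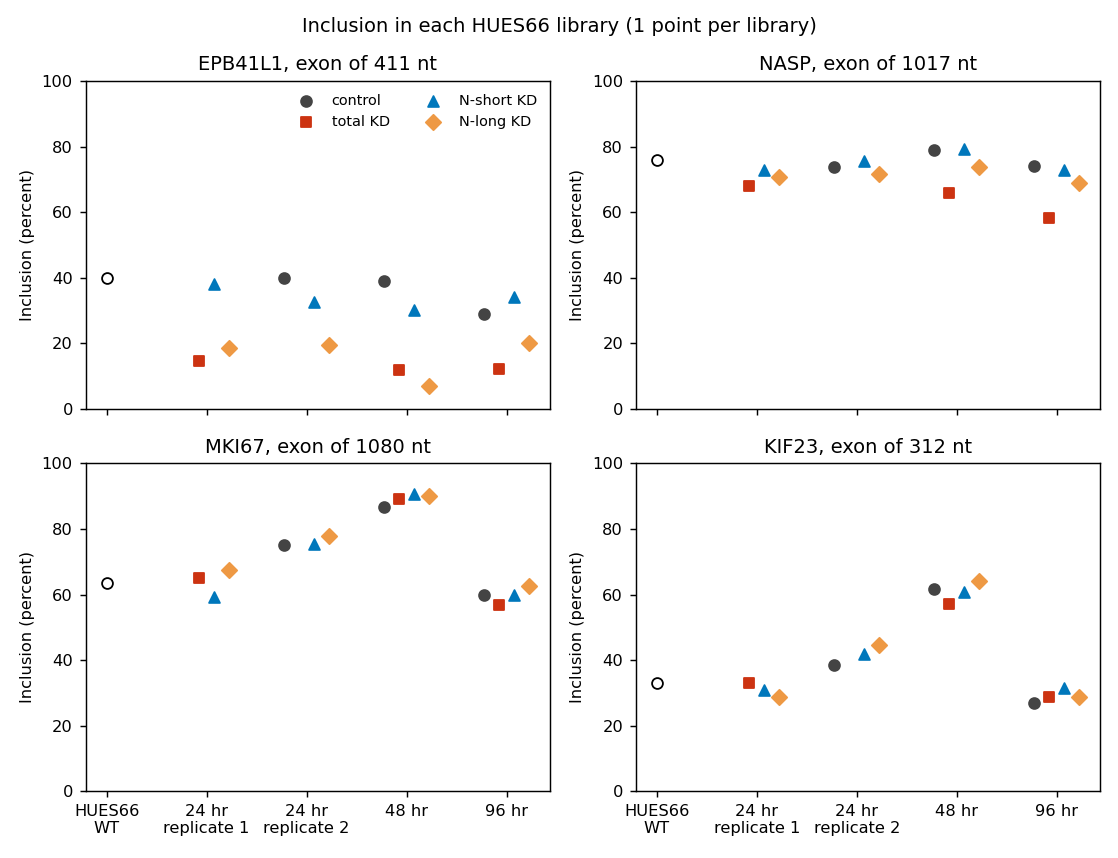
Inclusion in percent (y axis) of 4 long coding exons in each HUES66 library, by library set (x axis), with 1 point per library and colour and shape for the condition. EPB41L1 is at 7.14% to 20.0% in total and N-long KD and at 28.9% to 40.0% in control and N-short KD, whereas MKI67 and KIF23 separate the sets of libraries rather than the knockdowns.

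The second comparison set the 96 hr libraries against those of 48 hr, each in 4 conditions paired within 1 library series. Inclusion of 51 long exons in 47 genes changed, 20 higher and 31 lower at 96 hr, which is 18.4% of the 277 tested; of all 6750 exons 16.6% passed, 8.58% higher and 8% lower. All 4 conditions moved the same way in 45 of the 51 (88.2%), and in 39 (76.5%) the 48 hr and 96 hr libraries did not overlap. These exons were called on the same libraries, and over all 1119 exons called the shares were 92.8% and 78.8%. Among tested exons, called or not, they were 36.1% and 22.7% for the long ones and 33.7% and 19.3% for all.  A change of at least 20 points was seen in 11 exons, 7 lower and 4 higher, SEPT7 included. At an unadjusted p under 0.05 there were 93 long exons (33.6%), against 29.2% of all exons. Of the called exons 23 had unequal junctions or an intron inside. With the library of N-short KD at 48 hr left out 29 were called, without the 96 hr control 31, without N-long KD of 48 hr or total KD of 96 hr 32, and without N-short KD of 96 hr 33.

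MKI67 (ENSG00000148773.13) encodes Ki-67, which coats mitotic chromosomes and is used as a marker of dividing cells. Its 1080 nt coding exon on chromosome 10 (minus strand, 128114928 to 128116007) distinguishes the known long and short forms of the protein. At 48 hr its inclusion was 86.7% in control, 89.0% in total KD, and 90.7% and 90.1% in the N-short and N-long knockdowns. At 96 hr the values were 59.9%, 56.7%, 60.0% and 62.5%. The drop of 29.4 points ± 2.60 (difference -29.4, SD, n = 4 conditions; edgeR adjusted p 2.9e-15) was thus many times the spread between conditions. At 24 hr the exon stood at 59.2% to 67.5% in replicate 1 and 75.1% to 77.9% in replicate 2, so 48 hr was the highest of the 4 sets. Each of these libraries had 171 to 253 reads on it.

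KIF23 (ENSG00000137807.15) encodes the kinesin MKLP1 of the central spindle, needed for cytokinesis, and its 312 nt coding exon (chromosome 15, plus strand, 69440768 to 69441079) is the part present in the longer CHO1 form. Inclusion was 61.9%, 57.0%, 60.7% and 64.2% at 48 hr, in the same order of conditions. At 96 hr it was 27.0%, 28.7%, 31.6% and 28.7%. It fell by 32.0 points ± 3.75 (SD, n = 4 conditions; edgeR adjusted p 5.2e-11). The sets were ordered as for MKI67, with 28.9% to 33.1% in 24 hr replicate 1 and 38.6% to 44.6% in replicate 2. Neither exon passed against control in any knockdown (edgeR adjusted p 0.99 to 1.00), where KIF23 had differences of -1.58, 2.19 and 3.31 points and MKI67 of -0.43, 1.46 and 2.92 for total, N-short and N-long KD.

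Other coding exons fell at 96 hr. EPB41, which encodes protein 4.1R of the red cell membrane skeleton, went from 60.6% to 75.0% at 48 hr to 40.3% to 50.7% at 96 hr in its 450 nt exon (edgeR adjusted p 0.00025). GPC2, a proteoglycan of the cell surface, went from a mean of 85.2% to 59.7% in its 323 nt exon (adjusted p 0.00016). WAC, an adaptor of histone ubiquitination, went from 85.2% to 72.8% (309 nt; edgeR adjusted p 6.6e-06). VCAN went the other way. Its 2961 nt exon (chromosome 5, plus strand, 83519349 to 83522309) encodes the alpha region of versican, a proteoglycan of the extracellular matrix, where glycosaminoglycan chains attach. It had 15.6% to 19.3% at 48 hr and 25.8% to 28.96% at 96 hr, higher by 9.77 points ± 2.78 (SD, n = 4 conditions; edgeR adjusted p 3.8e-06).

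Zinc finger genes are known for a long exon that holds their DNA-binding fingers. Whether the cassette exons reported here hold fingers was not examined. Of 7 tested long exons in 6 genes of this group 3 rose and none fell, beside 8.58% of all exons higher and 8% lower. The 3 were in ZNF142 (600 nt), ZNF687 (869 nt, untranslated) and ZNF638 (1845 nt, with unequal junctions). ZNF638 counts with 2 of the tested exons, and its other exon (1519 nt) went from a mean of 89.6% to 94.97% without passing. The median difference of the 7 was 5.39 points, against 0.38 over all exons. ZNF142 went from a mean of 24.6% to 46.0%, and ZNF687 from 8.63% to 27.6%. The call in ZNF687 was lost without N-short KD of 96 hr (edgeR adjusted p 0.055), and that in ZNF142 without the control or N-short KD of 48 hr, without the control, N-short KD or N-long KD of 96 hr, or without N-short KD of 24 hr replicate 1 (0.050 to 0.25). MDC1, a mediator of the response to DNA breaks, rose from 67.0% to 83.4% in its 792 nt coding exon (edgeR adjusted p 0.021), and was the only called exon of 4 tested in the list of DNA repair genes. It did not pass without either of the controls of 48 and 96 hr or without total KD or N-long KD of 96 hr (edgeR adjusted p 0.070 to 0.12). Of the lists of cytoskeleton scaffolds (2 tested) and chromatin regulators (4 tested) no exon passed in any of the 5 comparisons, by edgeR. EPB41 was the only called exon of the 4 tested in genes known to respond to RBFOX proteins, and it passed over time only.

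Among long exons that carry the stop codon of a decay transcript, 8 of 44 changed over time, 7 lower and 1 higher at 96 hr. Those that fell were in the splicing regulators SRSF3 and TIAL1, the exon junction complex gene MAGOHB, the mitochondrial import genes TIMM8B and TIMM17B, the carrier SLC25A29 and the ubiquitin ligase CBLB. INO80E, a subunit of a chromatin remodeller, rose. Junctions were unequal in MAGOHB, TIMM17B, CBLB and INO80E, and an annotated intron with 1 read lay inside the SLC25A29 exon. Of 42 tested long exons with such a stop and at least 20 inclusion reads, 64.3% had unequal junctions. Among tested short exons with such a stop the share was 30.3%. Of short exons with such a stop 113 of 886 changed, 47 higher and 66 lower; whether long and short exons differ in this was not tested. SLC25A29 went from a mean of 48.9% to 19.05% in its 368 nt exon and TIAL1 from 15.7% to 4.78% in its 376 nt exon. INO80E went from 44.0% to 70.7% (319 nt), with junctions 3.19 fold apart, and was not called without total KD of 48 or 96 hr (edgeR adjusted p 0.052 and 0.062). CBLB, with 471 and 5 reads on its junctions, was not called without N-short KD or N-long KD of 48 or 96 hr or without the 48 hr control (0.053 to 0.13).

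SR proteins and related factors regulate themselves through such exons. In the list of splicing factors 10 long exons of 8 genes were tested, of which 1 rose and 4 fell over time, beside 8.58% higher and 8% lower over all exons. By annotation the called exons of SRSF3 and TIAL1 hold the stop of a decay transcript, and those of TRA2A and HNRNPC do not. The 456 nt exon of SRSF3 was at 2.97% to 3.41% at 48 hr and at 1.41% to 2.58% at 96 hr (edgeR adjusted p 0.0083). TRA2A has 2 exons of 312 and 301 nt that share an edge and a junction, which went from 25.6% to 15.2% and from 19.8% to 12.1%. The junctions of its 301 nt exon were unequal. HNRNPC, with its unequal junctions, rose from 63.0% to 68.6%. SRSF7 was at 2.83% to 4.01% at 48 hr and 3.45% to 4.15% at 96 hr in its 449 nt exon, and did not pass. None of the 10 passed in a knockdown comparison by edgeR. Junction reads cannot tell a lower share of inclusion at splicing from decay of the included form.

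**Figure D3:**
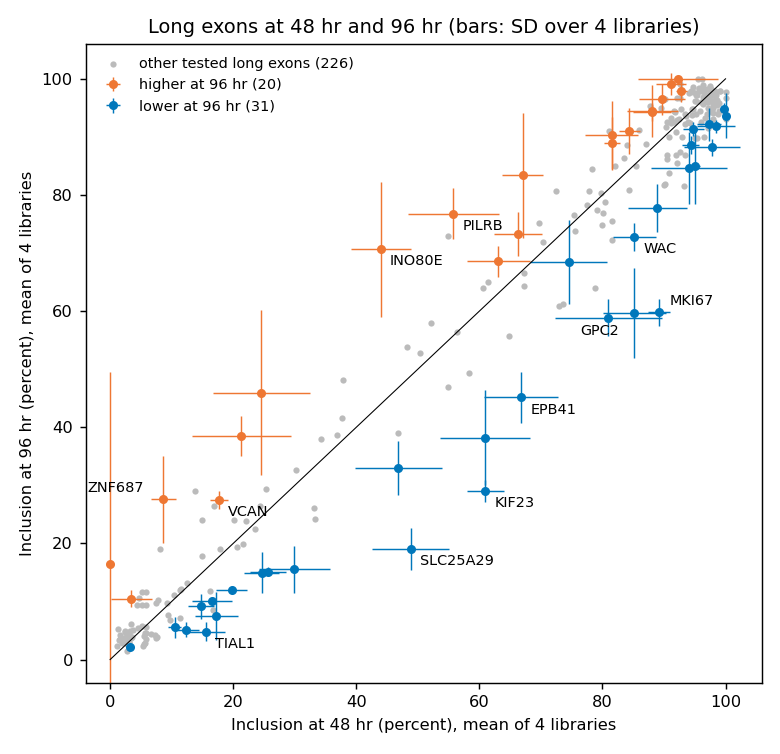
Mean inclusion of 277 tested long exons at 48 hr (x axis) and 96 hr (y axis) over 4 libraries each, with bars for the SD over libraries; bars are clipped at the axes. The 20 exons called higher at 96 hr are in orange and the 31 called lower in blue, with MKI67, KIF23 and SLC25A29 farthest below the diagonal and INO80E and PILRB above it.

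Other measures also moved between the 2 times. DNMT3B, a DNA methyltransferase of stem cells, was at 1086 to 1286 CPM at 48 hr and 1727 to 2341 at 96 hr, without overlap. The 8 stem cell markers together were at 2994 to 3130 and 3581 to 4341 CPM, and the 8 markers of fibroblasts and germ layers at 382 to 429 and 306 to 365 with SOX17 and HAND1 at 0. The share of annotated junction reads was 97.84% to 97.95% at 48 hr and 98.01% to 98.2% at 96 hr. Their part in the changes of inclusion was not tested. Each time has 1 set of libraries, so time and set cannot be told apart.

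The third comparison set the 3 cell lines side by side, with 1 library each and therefore without a test. Intervals are 95% Wilson intervals and cover counting error only. A difference of at least 20 points, with at least 20 reads in both libraries, was present in any pair of lines for 42 of 537 long exons, or 7.82%; the share over all 13559 exons compared was 5.59%. Between A375 and HEK293 it was 16 of 398 (all exons 2.94%), between A375 and HUES66 26 of 454 (3.61%) and between HEK293 and HUES66 17 of 471 (3.39%). In the last pair 13 of the 17 were lower in HEK293. Over all exons 255 of 413 were lower in HEK293. Between A375 and HUES66 the long exons split evenly, 13 higher and 13 lower, beside 222 and 190 over all exons. Of 184 coding long exons compared between HEK293 and HUES66, 11 differed, 10 of them lower in HEK293. Of 180 compared between A375 and HUES66, 13 differed, 9 of them lower in A375. The same split over coding exons of all lengths was not computed, so these counts do not set long coding exons apart.

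Several long exons were lower in both A375 and HEK293 than in HUES66. CLIP1, a microtubule plus-end protein, included its 2268 nt exon at 53.8% in HUES66 (42.9% to 64.5%, 78 reads), 2.27% in A375 (0.40% to 11.8%) and 1.14% in HEK293 (0.20% to 6.16%). The 450 nt exon of EPB41 was at 50.3% in HUES66 (42.9% to 57.7%), 3.85% in A375 and 3.57% in HEK293. CD99L2, an adhesion protein, had 79.2% (59.5% to 90.8%), 9.09% and 7.69% in its 1299 nt exon, on only 13 to 24 reads. DEPDC1, a gene of dividing cells, had 96.9% (93.5% to 98.6%) in HUES66, 30.6% in A375 and 33.1% in HEK293 in its 852 nt exon. NASP had 75.8% (74.0% to 77.5%), 35.9% (29.5% to 42.8%) and 35.4% (30.7% to 40.5%), with the junctions unequal as above.

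Others were higher outside the stem cells. NDUFV3, a subunit of respiratory complex I, included its 1095 nt coding exon at 81.2% in A375 (68.1% to 89.8%), 29.2% in HEK293 (22.4% to 37.1%) and 20.0% in HUES66 (16.9% to 23.6%). The 2 A375 fractions had 82.4% and 80.0%, close to total RNA. EPB41L1 was at 70.7% (55.5% to 82.4%) in A375 and 40.0% (29.7% to 51.3%) in HUES66, and at 80.0% in HEK293 on 15 reads. GK5 and TRIM16 were also higher in A375 than in wild-type HUES66, at 55.0% against 11.8% and 71.4% against 24.1%, on 20 to 34 reads. For GK5 the HUES66 libraries under doxycycline spanned 9.09% to 44.4%. Control and total KD of 48 hr, both at 44.4%, lay inside its A375 interval (34.2% to 74.2%), so its difference depends on the HUES66 library used. For TRIM16 the same libraries spanned 5.26% to 37.5%, below A375. The exons of MKI67 and KIF23 had, in wild-type HUES66, 63.4% and 33.1%. Both values lay within 24 hr replicate 1, whose library series it shares, slightly above every 96 hr library and below every 48 hr library. In A375 total RNA MKI67 was at 96.0% and KIF23 at 25.0%, so the pair that moved together over time stood apart between lines.

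**Figure D4:**
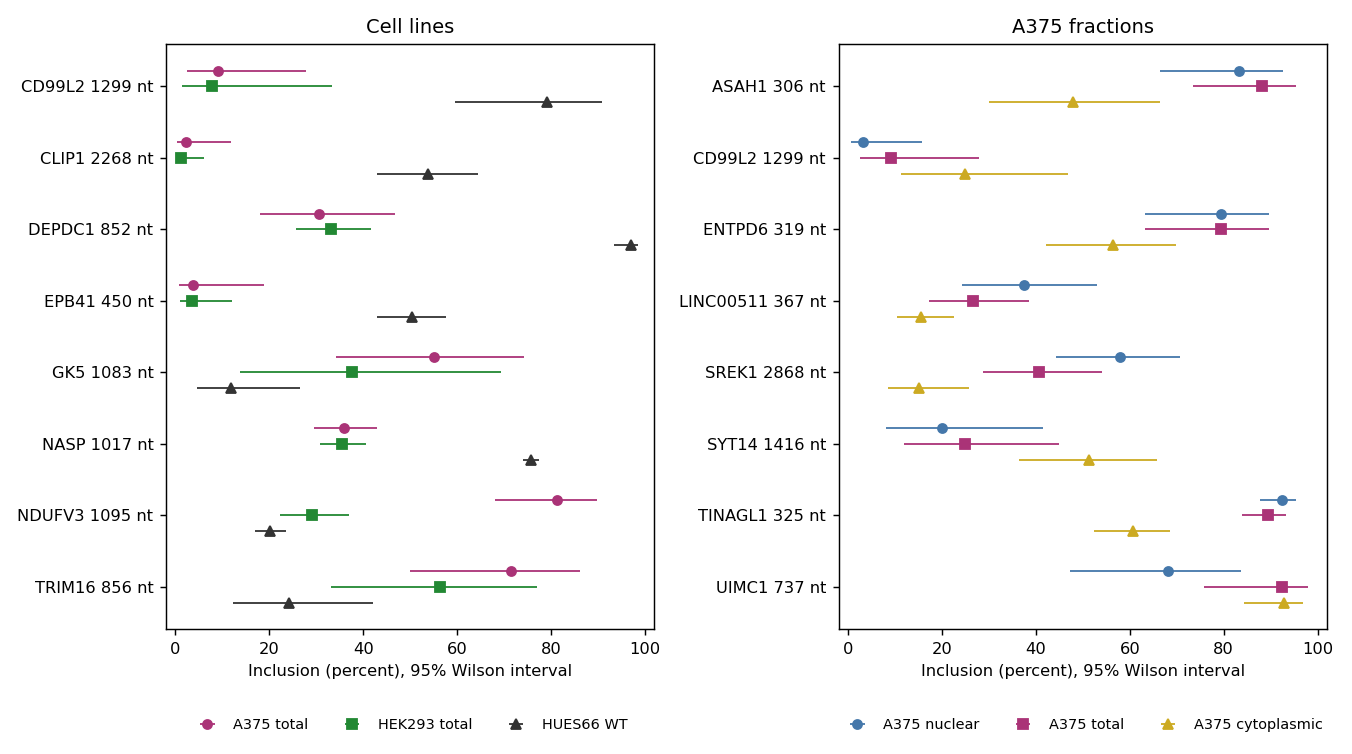
Inclusion in percent (x axis) with 95% Wilson intervals of 8 long exons in the 3 cell lines (left) and of 8 long exons in the A375 fractions (right), 1 point per library; libraries with fewer than 5 reads are not drawn. CD99L2, CLIP1, DEPDC1, EPB41 and NASP are higher in HUES66 than in both other lines. Nuclear and cytoplasmic intervals are separate for LINC00511, SREK1 and TINAGL1, higher in nuclear RNA, and for UIMC1, lower there.

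In A375 cells nuclear RNA was set against cytoplasmic RNA. Of 371 long exons 12 differed by at least 20 points, 9 higher in the nucleus and 3 lower; over all 9383 exons 1.73% differed. The largest difference was that of SREK1, a splicing regulator, whose 2868 nt exon in a noncoding transcript was at 58.0% in the nucleus (44.2% to 70.6%, 50 reads), 40.7% in total RNA and 15.2% in the cytoplasm (8.44% to 25.7%, 66 reads). TINAGL1, a matrix protein, had 92.4% (87.7% to 95.4%), 89.4% and 60.7% (52.3% to 68.6%) in its 325 nt exon. In both, the inclusion junctions were unequal, with 54 and 306 reads in SREK1 and 65 and 840 in TINAGL1. ASAH1 (306 nt) had 83.3% in the nucleus and 48.0% in the cytoplasm, but only 1 read on its upstream junction against 1569 on the downstream one.

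Exons whose junctions were balanced over all libraries differed in both directions. UIMC1, which recruits BRCA1 to DNA breaks, had 68.2% (47.3% to 83.6%) in the nucleus and 92.9% (84.3% to 96.9%) in the cytoplasm in its 737 nt coding exon. SYT14, a synaptotagmin, had 20.0% (8.07% to 41.6%) and 51.2% (36.5% to 65.7%) in its 1416 nt exon, with overlapping intervals. Its upstream and downstream junctions had 1 and 6 reads in the nuclear library and 27 and 14 in the cytoplasmic one. CD99L2 had 3.12% (0.55% to 15.7%) and 25.0% (11.2% to 46.9%), with overlapping intervals. In these 2 libraries its upstream junction had 0 reads and its downstream junction 1 and 9, so its balance comes from other libraries. Of the 12 exons 6 had junctions balanced over all libraries and no intron inside, 3 higher and 3 lower in the nucleus, and the other 6 were all higher. The nuclear library held 6499183 junction reads and the cytoplasmic one 22344622.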

How the data were processed

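RNA was sequenced from 19 cell line libraries with ribosomal RNA depletion, per the labels. The deposited junction files give raw read counts per splice junction without normalization. The submitters' processing notes name STAR 2.7.1, SAMtools 1.9 and hg38 without roles, and filters are not given in the sources used here. The authors' rMATS tables hold differences of inclusion level (control minus knockdown, between -1 and 1), which is another unit, and the authors' adjusted p-value, per the file headers; 69 per-library columns were not used.

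Junctions were matched to GENCODE 29. Of several skipping junctions with the same ends, the one with most reads was kept, and inclusion reads were the rounded mean of both inclusion junctions. The test covered 6750 exons whose mean was 20 reads or more in the fitted libraries and whose pooled inclusion was 2% to 98%. A joint edgeR 4.0.16 fit (R 4.3.3) used all 14 libraries under doxycycline, each as a pair of an inclusion and a skipping column, with terms for library, inclusion by set and inclusion by knockdown. P-values were adjusted by Benjamini-Hochberg over all exons, with a threshold of 0.05. Alternatives were limma 3.58.1 on log2 ratios (pseudocount 0.5), DESeq2 1.42.0, other filters and each library left out; the fits were tested on simulated data. Differences in points are means of differences within sets. Library sets follow the library series in the labels and serve as the replicate block: deviations from condition means had a median Pearson r of 0.19 (0.051 to 0.39) in 18 pairs of libraries of a set and -0.15 in 73 pairs of different sets, across exons.

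Named exons were all those called (at most 15 per comparison by size), the smallest p-values up to 5, the 8 with most reads, the 8 largest differences between lines and between fractions, and the 8 most read unequal exons. VCAN, WAC, TIAL1, MAGOHB, TIMM17B, TRA2A, ZNF638 and ANKHD1 were named after their values were seen. Some exons that the rule names are not reported here. Members and lists were chosen with earlier results of these data known. CPM is reads on a gene's annotated junctions scaled to the library's junction reads. Python 3.11.15 with numpy 2.4.6, pandas 2.3.3 and scipy 1.17.1 was used. Intervals treat reads as independent and cover counting error only.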

Additional observations from a re-analysis of the deposited data

Results flagged for a closer look

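Among 72 groups of 4 libraries of the same condition over the named exons, 4 held a library far from the other 3, and chance flags about 1 in 20 groups. These groups mix times, which that rate does not allow for. EPB41L1 was at 7.14% in N-long KD at 48 hr, while the other N-long KD libraries were at 18.8% to 20.0%. TIMM8B (333 nt) was at 26.8% in the same library and at 16.6% to 17.2% in the other N-long KD libraries; the 48 hr control and total KD were at 25.8% and 25.4%, so this library lay near others of its set. SYNRG (303 nt) was at 17.8% in N-short KD at 48 hr against 34.0% to 36.4%, while the other 48 hr libraries spanned 11.8% to 29.4%. APBB1 (735 nt) was at 95.2% in N-long KD at 96 hr, with the other 3 at 100%.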

How the results depend on the processing

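Inclusion of MKI67, KIF23 and EPB41 over time kept its direction and stayed past the threshold under every alternative run. The numbers of long exons called were 4 for total KD, 1 for N-short KD, 4 for N-long KD, 2 between the isoform knockdowns and 51 over time, and the lists below keep that order. Limma gave 0, 0, 0, 0 and 33, with 24, 17, 16 and 13 exons of the first 4 comparisons at an unadjusted p under 0.05, and DESeq2 gave 1, 0, 0, 0 and 12, with 8, 2, 3 and 1. A mean of at least 50 reads gave 2, 0, 1 and 0 in the knockdown comparisons. Without the replicate block (time point alone) the numbers were 3, 0, 2, 0 and 40, with 9 and 13 exons at an unadjusted p under 0.05 where edgeR called 0. With the lower of the 2 junctions the isoform comparison had 1, N-long KD 2, N-short KD 0 and time 24. With no filter on pooled inclusion N-long KD had 2, the isoform comparison 1 and time 25. With wild-type HUES66 added as a control total KD had 8 and N-short KD 0. Only exons with balanced junctions and no intron inside, an alternative chosen after seeing the data, gave 1, 0, 1, 1 and 28, and 27 between cell lines (42 as reported) and 6 between fractions (12 as reported). At least 50 reads gave 16 between lines and 2 between fractions, at least 10 points 117 and 41, and the lower junction 4 between fractions. Leaving out each library gave 3 to 5, 0 to 1, 1 to 4, 0 to 2 and 29 to 51. The cause of these shifts was not tested.

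SEPT7 turned its sign for N-short KD by limma (log2 odds 1.47), by DESeq2 (2.03) and without the replicate block (0.71), and over time by limma (-0.97) and DESeq2 (-1.88). Leaving out each library moved it from -6.48 to 1.91 for N-short KD and from -5.75 to 7.03 over time, where the sign turned when the control of 96 hr was dropped (1.91 and -2.16) and, over time, when that of 48 hr was (-5.75). EPB41L1 did not pass by limma or DESeq2 in the comparisons where edgeR called it (adjusted p 0.21 to 1.00).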
